A study of Mus musculus with 2 samples.

Results

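The keratins are the genes of the intermediate filaments that epithelial cells build. They were taken as every gene whose symbol is Krt followed by a digit and that had at least 10 UMIs (unique molecular identifiers, each standing for 1 captured RNA molecule) over both libraries. Of 53 such genes among the 32285 genes of the count tables, 50 met this rule. The genes just inside the limit were Krt26 with 10 UMIs and Krt34 with 11, and those just outside were Krt39 with 9, Krt31 with 7 and Krt40 with 1. The 50 genes held 202222 UMIs in all, of which Krt8, Krt18 and Krt17 had 67.7% and the 10 most abundant had 93.3%. At the other end, 15 members had under 100 UMIs.

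The data are 2 libraries of single thymic stromal cells (library 1 and library 2), made with the 3′ chemistry of 10x Genomics after blood cells carrying CD45 had been depleted on beads. Both come from mice of the genotype E2F_M11, in which CRISPR-Cas9 removed 2 E2F sites from the proximal promoter of Foxn1, the gene of the transcription factor that thymic epithelium depends on. The labels give neither strain, age nor sex, nor whether each library came from an animal of its own. The main fit removes the shift that all classes of a library share. Its p-values therefore rest only on the scatter left among the class sums, pooled over the 10 classes fitted. That scatter may be technical. The wild-type data named in the study's design were not analysed here, so no value below measures an effect of the deletion (the 3′ reads of Foxn1 lie outside the removed sites and check nothing), and the comparisons set cell classes of the mutant thymus against each other.

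Keratin filaments form from pairs of an acidic type I and a basic type II chain, and each epithelium uses its own pairs. Simple, single-layered epithelia use Krt8 with Krt18, and some add Krt7, Krt19, Krt20 or Krt23. The basal layer of stratified epithelia uses Krt5 with Krt14, its differentiating (suprabasal) layers switch to Krt1 with Krt10, and wounded or proliferating skin adds Krt6 and Krt16. Other members are typical of moist surfaces (mucosal keratins) or of the hair shaft and its root sheath. In the thymus, cortical epithelium is known for Krt8 and Krt18 and much of the medullary epithelium for Krt5 and Krt14. AIRE lets medullary cells transcribe genes of many peripheral tissues, and mimetic cells are medullary cells that take on the programme of a peripheral cell type such as skin keratinocytes or tuft cells.

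The 50 members were 25 type I and 25 type II genes. On GRCm38, the genome build of the annotation used here, 24 type I genes lay on chromosome 11 between 99232761 and 100269871, a span of 1.04 Mb. All 25 type II genes and 1 type I gene, Krt18, lay on chromosome 15 between 101347444 and 102032027, a span of 0.68 Mb. Krt8 (chromosome 15, 101996698 to 102004482, minus strand) and its partner Krt18 (102028180 to 102032027, plus strand) thus neighbour each other. Krt5 lay at 101707070 to 101712898 on the minus strand of chromosome 15, Krt14 at 100203162 to 100207548, Krt17 at 100256217 to 100261029, Krt19 at 100140810 to 100148665 and Krt10 at 99385254 to 99389364, these 4 on the minus strand of chromosome 11. UMIs come from near the end of a transcript, and for 40 of the 50 members no stretch of 31 bases from the last 500 occurred anywhere in the transcript of another member. The highest overlap was that of Krt14 with Krt17, each of which had 17.2% of these stretches in the other's transcript, so reads of those 2 genes could in part have been lost or assigned to either.

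The bases before the start site are shown for 4 members that stand for the patterns described below: Krt5 for the Ccl21a-high cells, Krt10 for the keratinocyte-like cells, and Krt76 and Krt20 for members called higher in Aire-expressing than in Ccl21a-high cells. Each is the 250 bases before the RefSeq start (GRCm38.p6), 5′ to 3′ on the gene's own strand. Capitals mark a TATA box (TATAAA) or a CCAAT box (CCAAT), searched on both strands.
Krt5, chr15:101712906-101713155, minus strand: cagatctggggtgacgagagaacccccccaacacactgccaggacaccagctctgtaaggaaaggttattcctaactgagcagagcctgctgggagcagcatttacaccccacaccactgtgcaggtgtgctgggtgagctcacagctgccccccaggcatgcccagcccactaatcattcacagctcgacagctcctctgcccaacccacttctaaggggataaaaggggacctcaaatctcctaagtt
Krt10, chr11:99389365-99389614, minus strand: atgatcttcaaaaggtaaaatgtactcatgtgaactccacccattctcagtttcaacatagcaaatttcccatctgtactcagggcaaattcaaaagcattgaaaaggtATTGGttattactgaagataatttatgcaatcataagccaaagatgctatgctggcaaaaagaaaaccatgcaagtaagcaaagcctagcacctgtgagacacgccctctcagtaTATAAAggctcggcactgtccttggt
Krt76, chr15:101892921-101893170, minus strand: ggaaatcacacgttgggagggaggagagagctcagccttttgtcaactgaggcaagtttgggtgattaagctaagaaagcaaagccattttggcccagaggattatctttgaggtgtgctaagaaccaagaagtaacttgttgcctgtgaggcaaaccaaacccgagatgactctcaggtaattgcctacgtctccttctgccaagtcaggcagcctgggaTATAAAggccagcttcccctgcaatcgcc
Krt20, chr11:99438154-99438403, minus strand: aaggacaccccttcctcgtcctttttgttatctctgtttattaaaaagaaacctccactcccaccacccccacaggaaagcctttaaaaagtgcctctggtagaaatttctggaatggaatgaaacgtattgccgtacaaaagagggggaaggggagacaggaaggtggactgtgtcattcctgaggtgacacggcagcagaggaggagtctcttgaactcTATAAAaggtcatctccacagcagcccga
The TATA box began 26 bases before the start of Krt10 and 29 bases before that of Krt76 and of Krt20, and the window of Krt5 held neither word. Of the 50 members, 33 had a window in the RefSeq table. TATAAA stood in 15 of these 33 (45.5%), against 13.0% of 27025 promoters. CCAAT stood in 14 (42.4%, against 34.5%), and the GC box GGGCGG in 2 (6.06%, against 33.0%). The core GACGC, to which FOXN1 is known to bind, stood in 4 (12.1%, against 22.6%), the AP-1 word TGANTCA in 1 (3.03%, against 6.85%) and the E2F word TTTNGCGC in none (against 1.15%). These are matches of letters, and genes of 1 cluster share ancestry.

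Cells were sorted into classes by marker genes that include no keratin. Of 3588 kept cells of library 1 and 8186 of library 2, 29.3% and 68.6% were in none of the classes described here (among them 5 neuroendocrine-like cells in each library and 2 muscle-like cells in library 2, too few to describe), and the median cell had 8727 and 1874 UMIs. The 2 libraries shared 13 kept barcodes. Cortical-like cells (67 in library 1 and 98 in library 2) carried Psmb11 and Prss16, genes of the cortical proteasome and peptide supply. Ccl21a-high cells (289 and 144) made the chemokine that draws thymocytes to the medulla. Aire-expressing cells numbered 238 and 142, and Ackr4-positive cells (60 and 25) carried Ackr4, a scavenger receptor for chemokines, with Trp63. Among mimetic cells were 31 and 97 keratinocyte-like and 60 and 71 tuft-like cells. Microfold-like (14 and 24), secretory-like (31 and 14) and enterocyte-like cells (31 and 19) fell under 20 cells in a library and are described without a test. Mesothelium-like cells (88 and 26), of the covering of the organ, had none or little of the pan-epithelial markers by their gate. In none of these classes did the 10 leading genes hold more markers of another class than of its own. Because the same markers set the gates, this does not check the class names. The 5 macrophage or dendritic markers summed to 226 and 1272 CPM in microfold-like cells and to 1100 and 1104 CPM in secretory-like cells. Their part in the keratin levels was not tested. Levels are CPM, the UMIs of a gene scaled to the same total of UMIs in every class and library. As 3′ counts they are not scaled for gene length, and orders between genes are of UMIs. More RNA per cell and more positive cells cannot be told apart in a class sum.

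Cortical-like cells held 10275 CPM (library 1) and 8665 CPM (library 2) of the 50 keratins together. This sum was 8034 and 7943 CPM in Ccl21a-high cells, 4097 and 4474 CPM in Aire-expressing cells, and 3194 and 4116 CPM in Ackr4-positive cells. Keratinocyte-like cells had the highest sums of the gated classes, 12913 and 13298 CPM. Tuft-like cells had 6312 and 8046 CPM, and mesothelium-like cells 1813 and 2085 CPM. Fibroblast-like cells, which should lack keratins, had 78.4 and 156 CPM, and thymocyte-like cells 115 and 150 CPM. These 2 classes serve as the background, and how much of it is free RNA was not tested. In fibroblast-like cells Krt10 averaged 22.3 CPM and Krt17 19.1 CPM, while Krt10 had 6205 UMIs in all and Krt17 43234. The epithelial classes therefore stood far above this background in both libraries, while Aire-expressing and Ackr4-positive cells overlapped each other.

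The 2 chain types did not contribute UMIs equally. The type I to type II ratio was 1.92 and 1.72 in cortical-like cells, 1.58 and 1.58 in Ccl21a-high cells, 1.48 and 1.47 in Aire-expressing cells, and 1.65 and 1.63 in Ackr4-positive cells. Tuft-like cells had a ratio of 0.984 and 1.06, lower than in those 4 classes in both libraries. In mesothelium-like cells it was 4.68 in library 1 and 1.59 in library 2, so the libraries did not give 1 value there.

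**Figure D1:**
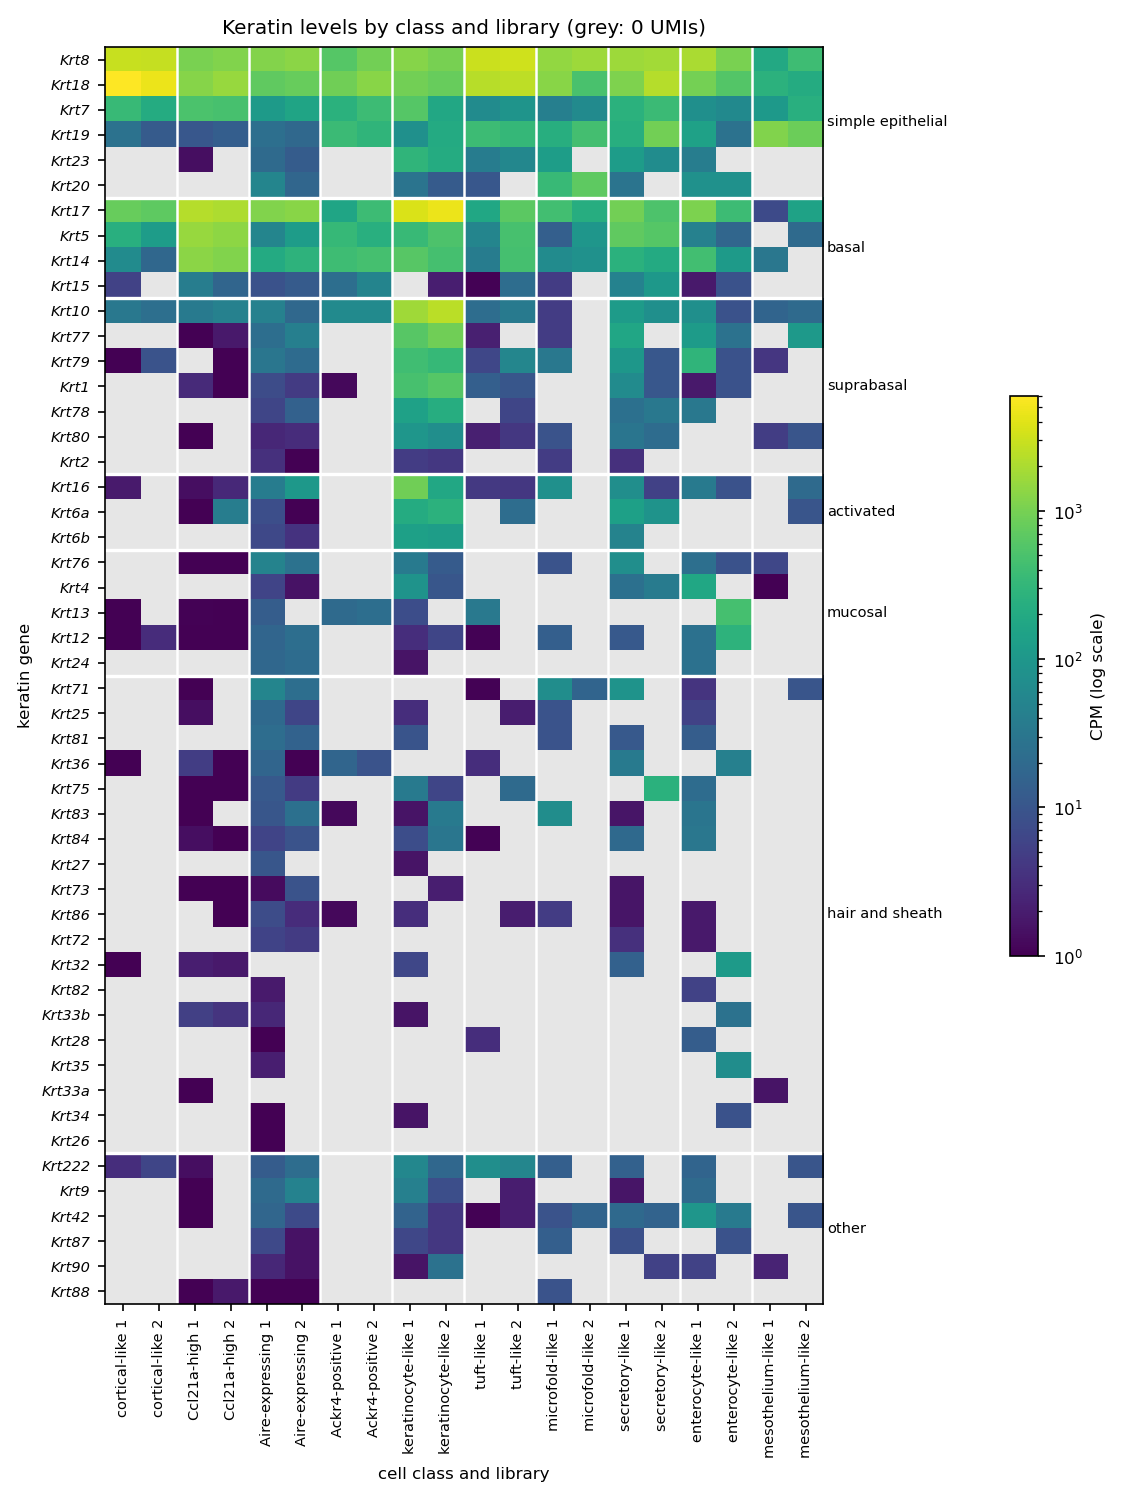
Level of all 50 keratins (rows, grouped by the epithelium they are typical of and sorted by total UMIs) in 10 cell classes, library 1 and library 2 side by side (columns). Colour is CPM on a log scale from 1 upwards, with lower values drawn as 1 and grey for 0 UMIs. Krt8 and Krt18 are present in every class, the suprabasal block is brightest in the keratinocyte-like columns, and the hair and mucosal rows are filled mainly in Aire-expressing and mimetic columns.

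Of the 50 members, 25 had their highest level in the same class in both libraries. All 7 suprabasal keratins and all 3 activated keratins were highest, by the mean of the libraries, in keratinocyte-like cells. Of the 4 basal keratins, Krt5 and Krt14 were highest in Ccl21a-high, Krt17 in keratinocyte-like and Krt15 in secretory-like cells. By the same mean, the 6 simple epithelial keratins had 6 different leading classes: Krt18 led in cortical-like, Krt8 in tuft-like, Krt7 in Ccl21a-high, Krt19 in mesothelium-like, Krt20 in microfold-like and Krt23 in keratinocyte-like cells. The libraries differed for Krt7, highest in keratinocyte-like cells in library 1, and for Krt19, highest in secretory-like cells in library 2. Of the 19 hair and sheath keratins, 7 were highest by the mean of the libraries in Aire-expressing and 7 in enterocyte-like cells, often on few UMIs.

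Genes were tested over sums of counts per class and library with edgeR's quasi-likelihood test, with the library as a block, and a gene counts as called where its p, adjusted by Benjamini-Hochberg over the 13058 genes tested, did not exceed 0.05. "Medullary" stands for the mean of the log2 levels of Ccl21a-high and Aire-expressing cells. Only 31 of the 50 members passed the filter on low counts. A member high in 1 class alone could pass through that class, so counts of called members describe those 31 genes and not the family.

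Cortical-like cells carried the simple pair Krt8 and Krt18 above the medullary level and Krt14 below it. Krt18, the type I partner of Krt8, had 5819 and 4724 CPM in cortical-like cells (5271 ± 774, SD, n = 2), against 1227 and 1581 CPM in Ccl21a-high and 724 and 782 CPM in Aire-expressing cells. All cortical-like values of Krt18 lay above all medullary ones, and it was higher by 2.17 ± 0.24 on the log2 scale (SE, edgeR adjusted p = 5.29e-06). Krt8 had 2926 and 2840 CPM, against 1029 and 1163 CPM in Ccl21a-high and 1214 and 1314 CPM in Aire-expressing cells. It was higher by 1.10 ± 0.27 log2 (edgeR adjusted p = 0.00824).

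Krt14, the basal type I chain, had 66.8 and 18.3 CPM in cortical-like cells, 1344 and 1146 CPM in Ccl21a-high and 207 and 275 CPM in Aire-expressing cells. The groups did not overlap, and Krt14 fell by 3.57 ± 0.71 log2 (edgeR adjusted p = 0.00162). Within library 1 the difference was -3.14 and within library 2 it was -5.09. Krt5, its type II partner, had 240 and 122 CPM in cortical-like cells, below the 1559 and 1385 CPM of Ccl21a-high cells but not below the 52.5 and 124 CPM of Aire-expressing cells. Against the medullary mean its difference of -0.97 ± 0.59 log2 did not pass (edgeR adjusted p = 0.286). It did pass in the fit without a filter on low counts (0.0127), with the stricter cell filter (0.0249) and in the fit of these classes alone (0.0420).

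Krt76, Krt23 and Krt1 were also called lower, with 0 UMIs in the cortical-like cells of both libraries, where 3 UMIs would be 1.87 and 9.13 CPM. Against Aire-expressing cells, the cortical-like level was at least 27.6-fold lower for Krt76 (315 UMIs there), at least 11.7-fold for Krt23 (133 UMIs) and at least 4.30-fold for Krt1 (49 UMIs), with the floor of 3 UMIs taken over both libraries. Ccl21a-high cells had only 3, 4 and 9 UMIs of these genes, so the call rests on the Aire-expressing cells. The calls of Krt23 (adjusted p = 0.621) and Krt1 (0.0731) were lost with the stricter gate, that of Krt23 also with the stricter cell filter (0.103), and that of Krt1 in the fit of these classes alone. In all 2 members were called higher and 4 lower, 6 of 31 (19.4%), beside 18.9% of all genes tested (9.41% higher and 9.44% lower), near the share of all genes. The count of members called was 14 without the low-count filter, 11 in the fit of these classes alone and 9 with the stricter cell filter. The median difference of the 31 members was -1.29 log2 with genes at 0 UMIs set to their bound, against -0.12 for all genes. The 6 thymocyte markers summed to 638 and 569 CPM in cortical-like cells, with 5 of 6 detected in both libraries, and to between 52.9 and 182 CPM in the medullary classes. Their part in these differences was not tested.

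**Figure D2:**
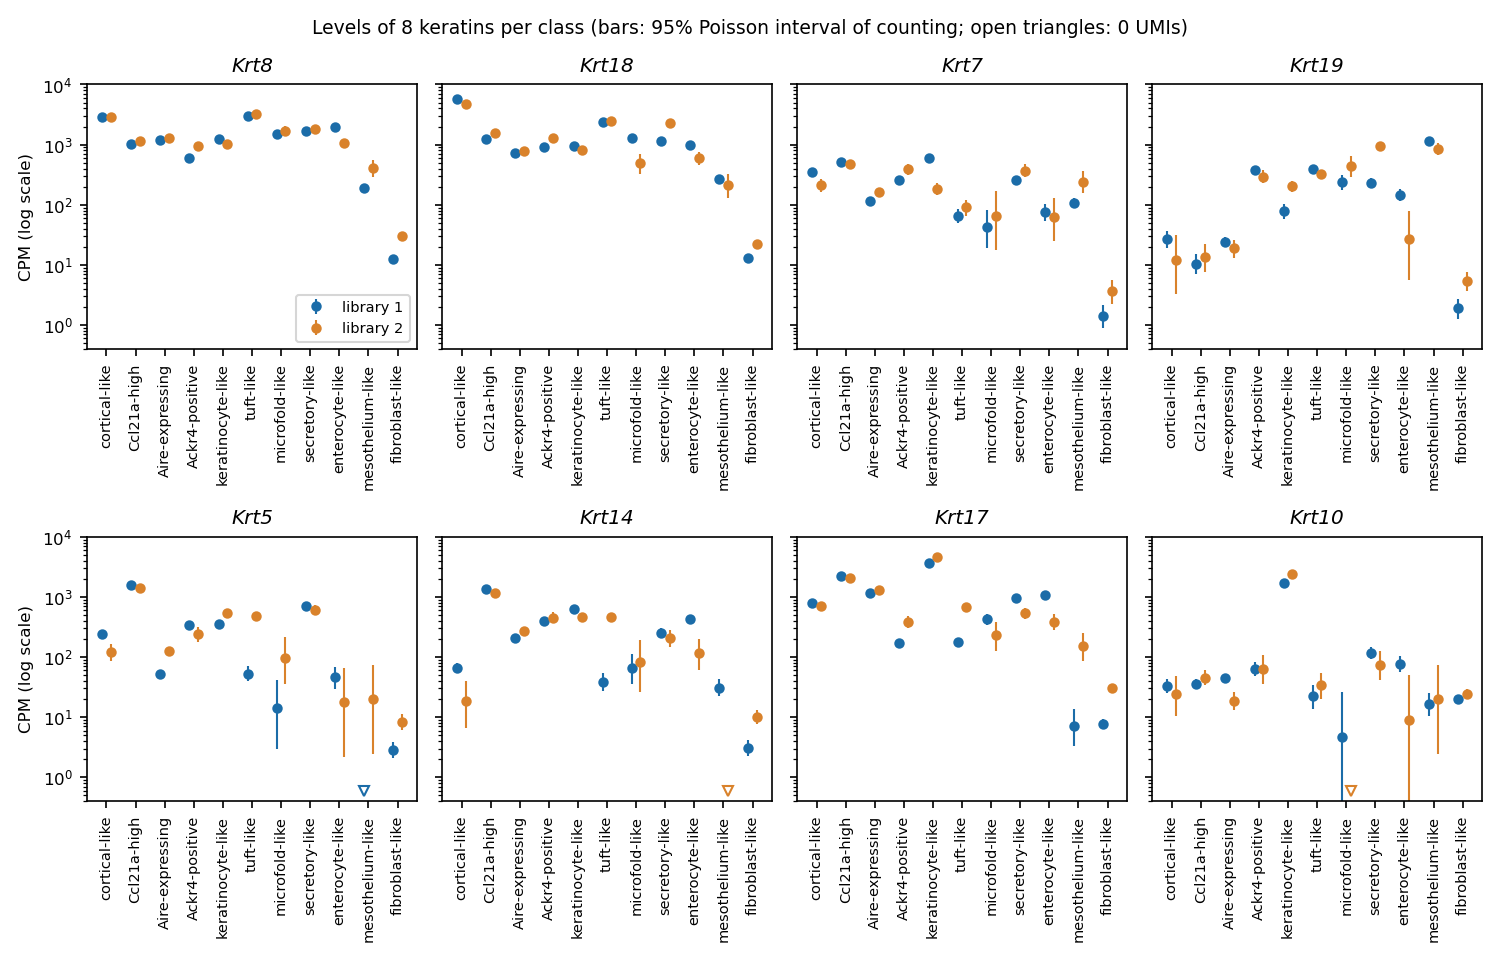
Levels (CPM, log scale) of 8 keratins in 11 classes for library 1 (blue) and library 2 (orange), with 95% Poisson intervals of the count and open triangles for 0 UMIs. Krt18 peaks in cortical-like cells at 5819 and 4724 CPM, Krt5 and Krt14 in Ccl21a-high cells, Krt10 in keratinocyte-like cells and Krt19, by the mean of the libraries, in mesothelium-like cells. The fibroblast-like column gives the background level, and how much of it is free RNA was not tested.

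The 2 medullary classes differed in most of the keratins that could be tested. Ccl21a-high cells held more Krt5, Krt14, Krt7 and Krt18 (2 of the 4 basal and 2 of the 6 simple keratins), and Aire-expressing cells held more of 18 members, among them 2 other simple keratins, Krt20 and Krt23, and keratins typical of skin, hair, cornea and mouth. Krt5 had 1559 and 1385 CPM in Ccl21a-high cells and 52.5 and 124 CPM in Aire-expressing cells, a difference of 4.20 ± 0.72 log2 (edgeR adjusted p = 0.000217). Krt14 was higher by 2.38 ± 0.67 log2 (edgeR adjusted p = 0.0101), a call that the DESeq2 test did not make (adjusted p = 0.0742). Krt7, a keratin of ducts and glands, had 512 and 483 against 114 and 160 CPM and was higher by 1.84 ± 0.48 log2 (edgeR adjusted p = 0.00623). Krt18 was higher by 0.86 ± 0.29 log2 (edgeR adjusted p = 0.0277), whereas Krt8, at -0.24 ± 0.33 log2, did not pass (edgeR adjusted p = 0.608). In the fit of these 2 classes alone Krt8 did pass (adjusted p = 0.00648), at -0.30 log2.

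Krt17, a chain of basal and activated cells, was abundant in both, with 2248 and 2047 against 1171 and 1290 CPM. Its difference of 0.82 ± 0.55 log2 did not pass (edgeR adjusted p = 0.263).

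On the other side, Krt20, the keratin of gut surface cells, had no UMI among the 289 and 144 Ccl21a-high cells and 285 and 35 UMIs (53.1 and 17.8 CPM) in Aire-expressing cells, so it was at least 57.4-fold lower in Ccl21a-high cells. The same bound was at least 26.7-fold for Krt81, a hair shaft keratin with 149 UMIs in Aire-expressing cells, at least 25.1-fold for Krt24 (140 UMIs), at least 11.1-fold for Krt78 (62 UMIs) and at least 7.54-fold for Krt6b (42 UMIs). Krt71, of the inner root sheath of hair, had 1 UMI in Ccl21a-high and 330 in Aire-expressing cells, a ratio of 178 with a 95% counting interval of 31.7 to 7037. Krt76, of the hard palate and other oral surfaces, had 3 against 315 UMIs, a ratio of 56.5 (19.2 to 276). Krt79 had 1 against 206 UMIs (ratio 110.9, 19.7 to 4401), Krt9, the keratin of palms and soles, 2 against 202 (54.4, 14.9 to 452) and Krt42 1 against 109 (58.7, 10.3 to 2339). These intervals and bounds cover counting error only.

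Krt16, an activated keratin, had 1.40 and 2.73 CPM against 38.0 and 105 CPM and fell by 5.31 ± 0.94 log2 (edgeR adjusted p = 0.000336). Krt12, the keratin of the cornea, had 2 against 136 UMIs, a ratio of 36.6 (95% counting interval 9.94 to 305), and was called lower too. Krt23 fell by 4.07 ± 0.60 log2 (edgeR adjusted p = 0.000108) and Krt1 by 1.53 ± 0.50 log2 (edgeR adjusted p = 0.0288). Both libraries gave the same direction for every called member. By role, 5 of the 6 tested suprabasal keratins, 3 of 4 mucosal, 3 of 5 hair and sheath, 2 of 3 activated and 3 of 3 others were lower in Ccl21a-high cells. In all 4 members were called higher and 18 lower, 22 of 31 (71%), beside 35.2% of all genes tested (15.2% higher and 20.0% lower), and the median with bounds was -3.39 log2 against -0.0076 for all genes. DESeq2 called 13 of the 22. It did not call Krt20 (adjusted p = 0.117), Krt81 (0.377), Krt24 (0.377), Krt78 (0.233), Krt71 (0.401), Krt6b (0.522) or Krt42 (0.127), nor Krt14 and Krt83. The 5 macrophage or dendritic markers, all detected in both libraries, summed to 613 and 609 CPM in Aire-expressing cells and to 14.4 and 14.6 CPM in Ccl21a-high cells, and their part in the keratin differences was not tested.

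**Figure D3:**
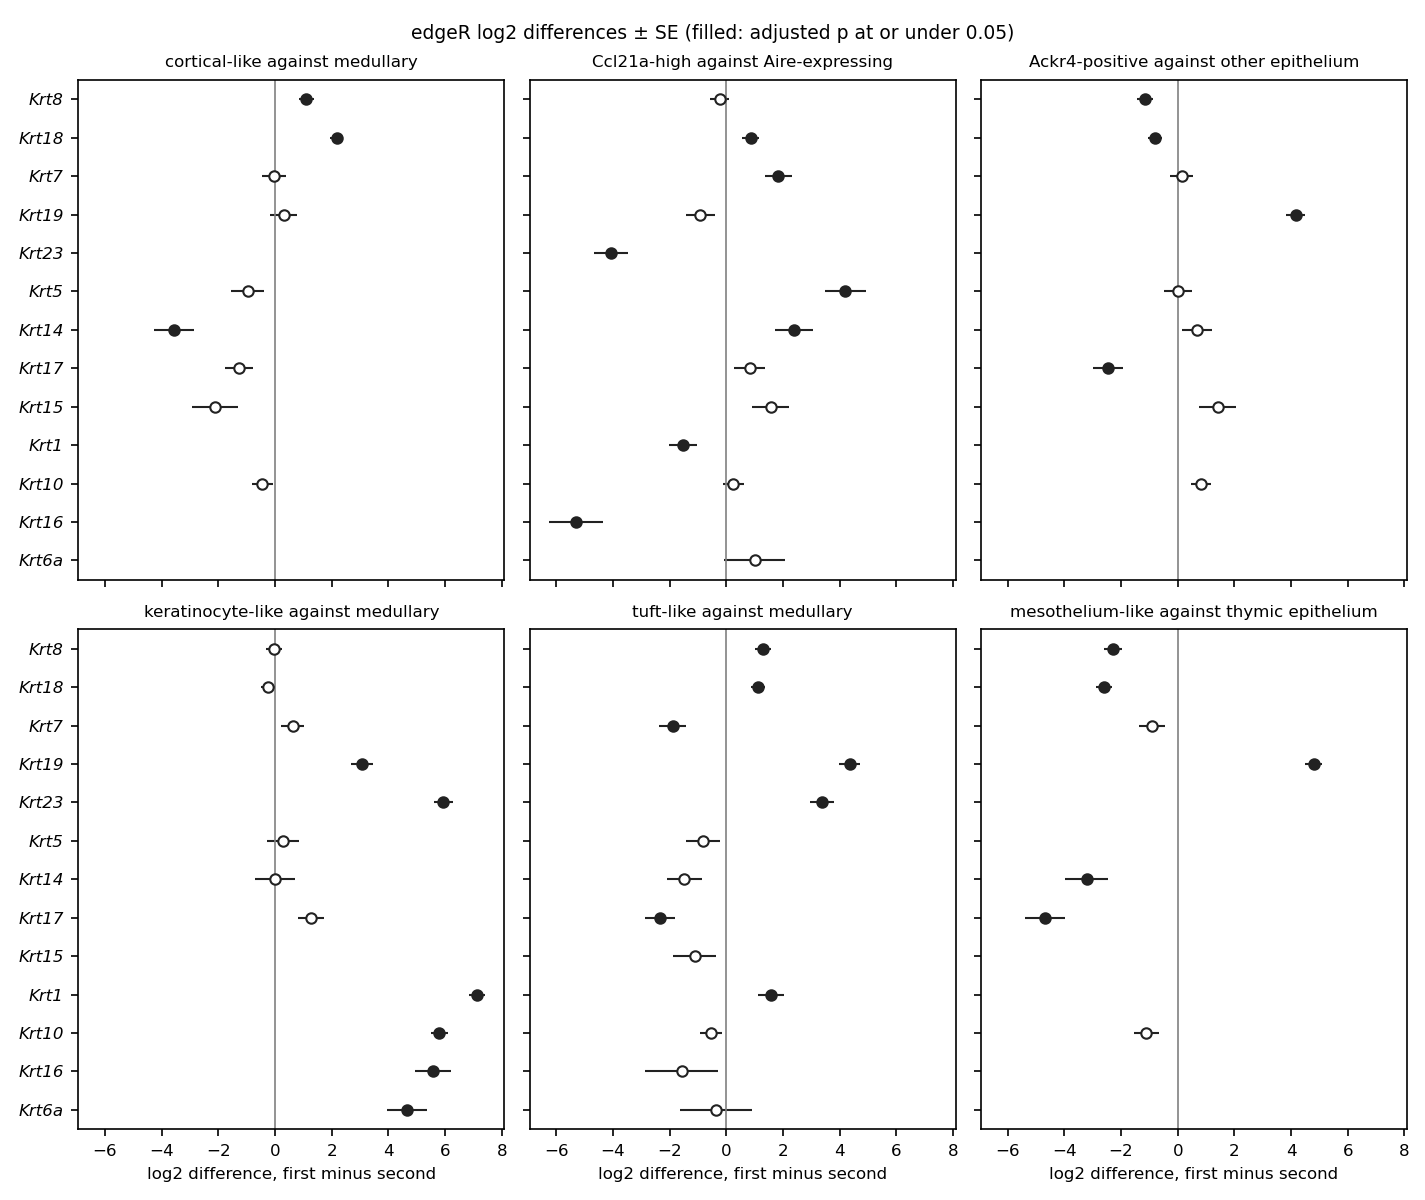
Log2 differences of 13 keratins (rows) in 6 comparisons (panels), with the standard error from edgeR as bars, filled where the adjusted p was at or under 0.05. A row is empty where a class of that comparison had 3 UMIs or fewer of the gene or where the gene was not tested. Krt19 lies at 4.16 to 4.80 in the Ackr4-positive, tuft-like and mesothelium-like panels.

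In Aire-expressing cells the many keratins were held by few cells each. Of the 50 members, 48 had a UMI in this class, and 44 had at least 10 UMIs. Of these 44, 27 were found in under 10% of the 380 cells and 17 in under 5%. A member with few UMIs can only be found in few cells, as Krt82 with 10 UMIs and Krt35 with 11. The share among other genes with as many UMIs was not computed, so these counts describe the members alone. Krt8, by contrast, was found in 98.3% of the cells of library 1 and 96.5% of library 2. Krt71 was found in 18 of 238 cells in library 1, where the 5 richest cells held 82.1% of its UMIs, and in 5 of 142 in library 2, where 1 cell held 77.8%. Krt76 was found in 12.6% and 9.15% of cells, with 71.4% and 77.4% of its UMIs in the 5 richest. Krt20 was spread more evenly, over 23.1% and 13.4% of cells, with 35.8% and 57.1% in the 5 richest, and Krt12 over 16.8% and 13.4%. Krt13 stood in 6 cells of library 1 and none of library 2.

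To compare classes at 1 depth, each cell was thinned at random to 1000 UMIs. A UMI of any mucosal, hair and sheath or other keratin was then seen in 20.2% (95% exact binomial interval 15.3 to 25.8%) and 16.2% (10.6 to 23.3%) of Aire-expressing cells. In Ccl21a-high cells the share was 1.38% (0.378 to 3.51%) and 0.694% (0.0176 to 3.81%), and in cortical-like cells 0 of 67, which allows up to 4.48% as 3 cells of 67 (5.36% by the exact interval), and 1.02%. Keratinocyte-like cells had 22.6% and 12.4%, enterocyte-like cells 22.6% and 21.1% and secretory-like cells 12.9% and 0 of 14 (which allows up to 21.4%), so such breadth was also seen in mimetic classes. The shares of Aire-expressing cells thus lay above the intervals of the Ccl21a-high cells in both libraries. At a fixed 50000 UMIs of a class sum, 23.6 and 20.2 members were expected to be seen in Aire-expressing cells, against 9.51 and 9.89 in Ccl21a-high, 8.17 and 7.67 in cortical-like, 10.1 and 10.1 in Ackr4-positive 25.6 and 23.1 in keratinocyte-like, 23.4 and 18.6 in enterocyte-like and 25.9 and 16.5 in secretory-like cells.

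**Figure D4:**
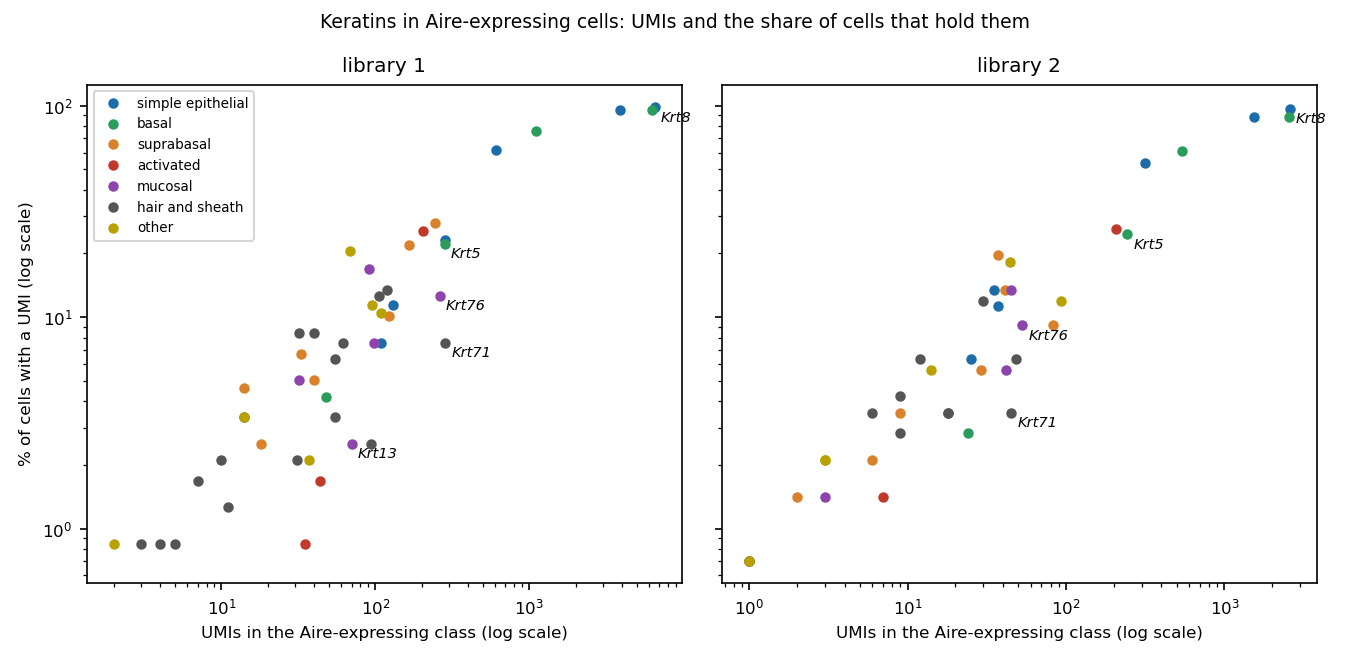
Each point is a keratin in the Aire-expressing cells of library 1 (left) or library 2 (right), by its UMIs in the class (log scale) and the percentage of cells with a UMI (log scale), coloured by role. Krt8 is in 98.3% and 96.5% of cells, while Krt71 and Krt13 lie low for their UMIs because few cells hold them.

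Ackr4-positive cells were set apart from the mean of cortical-like, Ccl21a-high and Aire-expressing cells by more Krt19 and Krt13 and less Krt17, Krt8 and Krt18. Krt19, the small type I keratin of many simple epithelia, had 382 and 293 CPM in Ackr4-positive cells and between 10.5 and 26.9 CPM in the other 3 classes, with no overlap. It was higher by 4.16 ± 0.34 log2 (edgeR adjusted p = 8.31e-07), and was found in 37 of 60 and 16 of 25 cells. Krt13, of moist stratified surfaces such as the oesophagus, had 17 UMIs in 11 cells (20.6 CPM) and 5 UMIs in 4 cells (22.9 CPM). Pooled over the libraries this was 20.8-fold the level of Ccl21a-high cells (95% counting interval 7.06 to 83.0, from 4 UMIs there) and 2.21-fold that of Aire-expressing cells (1.30 to 3.61). Its call (edgeR adjusted p = 0.0265) was lost without the library block (0.0725) and with DESeq2 (0.137).

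Krt17 had 168 and 385 CPM in Ackr4-positive cells, below the 694 to 2248 CPM of the other classes, and fell by 2.47 ± 0.54 log2 (edgeR adjusted p = 0.00562). Within library 1 the difference was -3.00 and within library 2 it was -1.76. Krt8 fell by 1.15 ± 0.29 log2 (edgeR adjusted p = 0.0150) and Krt18 by 0.80 ± 0.25 log2 (edgeR adjusted p = 0.0494), a call lost without the block (0.0571). Krt18 lay above its Aire-expressing level in both libraries, so its fall holds against the mean of the other classes and not against each. Krt5, with 339 and 238 CPM, and Krt14, with 400.5 and 454 CPM, lay between the Ccl21a-high and Aire-expressing levels and did not pass (edgeR adjusted p = 1 and 0.502). Krt14 did pass in the fit of these classes alone (0.0383). Krt36, a keratin of the tongue and nail bed, was found in 11 of 60 and 2 of 25 of these cells. In all 2 members were called higher and 3 lower, 5 of 31 (16.1%), beside 10.2% of all genes tested (5.91% higher and 4.26% lower), and 3 were called without the block and 8 in the fit of these classes alone. The median with bounds was 0.0065 log2, against -0.11 for all genes.

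Keratinocyte-like cells carried the keratins of the upper layers of skin at levels well above the rest of the medulla. Krt10 had 1718 and 2415 CPM in keratinocyte-like cells, against 18.8 to 45.6 CPM in the 2 medullary classes and 20.0 and 24.6 CPM in fibroblast-like cells. It was higher by 5.79 ± 0.31 log2 (edgeR adjusted p = 1.62e-09). Its type II partner Krt1 had 476 and 597 CPM against 0.910 to 7.45 CPM and was higher by 7.13 ± 0.28 log2 (edgeR adjusted p = 1.62e-09). All 6 tested suprabasal keratins were called higher. Of them, Krt77 was 26.4-fold (95% counting interval 22.6 to 30.9), Krt79 13.6-fold (11.5 to 16.1), Krt78 21.3-fold (16.0 to 28.8) and Krt80 32.0-fold (19.7 to 54.7) the pooled level of Aire-expressing cells. Ccl21a-high cells had 3 UMIs or fewer of these 4.

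The activated keratins Krt6a, Krt6b and Krt16 were called higher too, but less evenly. Krt16 had 925 CPM in library 1 and 182 CPM in library 2, a difference from medullary of 6.61 and 3.15 log2 within the libraries and of 5.57 ± 0.63 log2 over both (edgeR adjusted p = 8.12e-06). Krt6a had 209 and 266 CPM and was higher by 4.66 ± 0.71 log2 (edgeR adjusted p = 0.000408), a call that DESeq2 did not make (0.305). In the Ccl21a-high cells of library 2, 1 cell held 43 of its 44 UMIs. Krt6b rested on 1 cell in each library, which held 87 of 88 and 56 of 63 UMIs. DESeq2 did not call it (0.403), nor Krt78 (0.138). The suprabasal pair was concentrated in few cells as well: the 5 richest cells held 79.0% of Krt10 UMIs in library 1 and 45.4% in library 2, and 98.3% and 86.6% of Krt1 UMIs.

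The main basal and simple pairs did not pass the test against medullary, while other members of both groups did. Of these pairs, Krt5, Krt14 and Krt18 lay below their Ccl21a-high and above their Aire-expressing levels in both libraries. Their small differences from the medullary mean therefore do not say that they matched either class. Krt5 (357 and 532 CPM), Krt14 (620 and 462 CPM), Krt8 (1254 and 1014 CPM) and Krt18 (934 and 804 CPM) had differences of 0.28 ± 0.55, -0.00097 ± 0.72, -0.048 ± 0.29 and -0.25 ± 0.25 log2, with edgeR adjusted p of 0.802, 1, 0.946 and 0.566. Krt17 reached 3655 and 4579 CPM, its highest level in any gated class, and lay above medullary by 1.28 ± 0.45 log2, which did not pass (edgeR adjusted p = 0.0646). It was called with DESeq2's size factors, without the low-count filter, with the stricter gate, with the stricter cell filter and in the fit of these classes alone. Of the 6 simple keratins 3 were called higher: Krt23 (300 and 209 CPM) by 5.93 ± 0.34 log2 (edgeR adjusted p = 2.24e-08), Krt19 (77.5 and 203 CPM) by 3.07 ± 0.40 log2 (edgeR adjusted p = 2.52e-05), and Krt20 on 18 and 6 UMIs, a call that DESeq2 did not make. However, Krt20 lay below its level in Aire-expressing cells in both libraries. Its call rests on the Ccl21a-high cells, which had no UMI of it. Krt15, of the basal layer and hair bulge, was the 1 member called lower, on 0 and 1 UMI (edgeR adjusted p = 0.0367), and its pooled level was 37.8-fold below that of Ccl21a-high cells (95% counting interval 6.67 to 1504). That call was lost with the stricter gate and with DESeq2. In all 15 members were called higher and 1 lower, 16 of 31 (51.6%), beside 15.9% of all genes tested (11.6% higher and 4.30% lower), and DESeq2 called 9. Like Krt20, the called members Krt9 and Krt76 did not exceed their Aire-expressing levels by the mean of the libraries. For Krt9 these means were 26.2 against 33.8 CPM, though in library 1 keratinocyte-like cells had more. Ccl21a-high cells had few UMIs of both, so these calls rest on that class. The median with bounds was 2.12 log2, against 0.0022 for all genes. The 5 haemoglobin and erythroid markers, all detected in both libraries, summed to 1644 and 3714 CPM in keratinocyte-like cells and to between 4.91 and 233 CPM in the medullary classes, and the macrophage or dendritic markers to 280 and 573 CPM. Their part in the differences was not tested.

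Tuft-like cells, chemosensory cells with a tuft of microvilli, held more than medullary cells of 4 of the 6 simple keratins. Krt7 was called lower and Krt20 was not called. Krt8 had 3037 and 3211 CPM and was higher than medullary by 1.29 ± 0.27 log2 (edgeR adjusted p = 0.00213). Krt18 had 2337 and 2508 CPM and was higher by 1.11 ± 0.24 log2 (edgeR adjusted p = 0.00259). Krt19 had 386 and 325 CPM and was higher by 4.35 ± 0.37 log2 (edgeR adjusted p = 8.59e-08). None of these values overlapped the medullary ones.

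Krt222, a short keratin-like gene at the edge of the chromosome 11 cluster, had 73.0 and 54.5 CPM and was found in 27 of 60 and 21 of 71 tuft-like cells. It was higher by 3.81 ± 0.56 log2 (edgeR adjusted p = 7.41e-05), and Krt23 by 3.36 ± 0.42 log2 (edgeR adjusted p = 2.98e-05). Krt17 fell by 2.35 ± 0.54 log2 (edgeR adjusted p = 0.00404) and Krt7 by 1.89 ± 0.48 log2 (edgeR adjusted p = 0.00781). Krt76 had no UMI in tuft-like cells and was at least 20.6-fold lower than in Aire-expressing cells. Krt79 and Krt1 were called higher against the mean of the medullary log levels. However, Krt79 did not exceed its level in Aire-expressing cells, where it was 1.23-fold higher (95% counting interval 0.846 to 1.83). The calls of Krt79 (adjusted p = 0.0620) and Krt1 (0.0514) were lost in the fit of these classes alone, that of Krt79 with DESeq2 (0.0907) and that of Krt1 with the stricter gate (0.0958).

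The basal chains of tuft-like cells depended on single cells. Krt5 had 52.9 CPM in library 1 and 479 CPM in library 2, where 1 cell held 165 of 237 UMIs. Krt14 had 39.1 and 458 CPM, and 1 cell of library 2 held 214 of its 227 UMIs. Neither passed the test (edgeR adjusted p = 0.356 and 0.103), though both were called lower without the low-count filter (0.0216 and 1.12e-05). Within library 2 the difference of Krt5 from medullary was 0.03 log2. In all 7 members were called higher and 3 lower, 10 of 31 (32.3%), beside 21.6% of all genes tested (12.9% higher and 8.76% lower). The median with bounds was -0.55 log2, against -0.05 for all genes.

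The remaining 3 mimetic classes were too small to test. Microfold-like cells, which resemble the antigen-sampling cells of gut lymphoid tissue, had the highest Krt20, 353 and 685 CPM, found in 6 of 14 and 14 of 24 cells. Secretory-like cells had Krt19 at 233 and 954 CPM and Krt15 at 47.8 and 102 CPM, and their Krt75 (257 CPM in library 2) came from 1 cell with 48 UMIs. Enterocyte-like cells had Krt13 at 0 and 465 CPM, of which 1 cell held 48 of 52 UMIs, and Krt12 at 25.6 and 277 CPM, where all 31 UMIs of library 2 came from 1 cell. The Krt13 and Krt12 levels of library 2 were therefore those of 1 cell each.

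Mesothelium-like cells had Krt19 as their leading keratin, with less Krt8 and Krt18 than the thymic epithelial classes and little of the basal chains (38.2 and 171 CPM in sum). After Krt19, the most abundant members were Krt18 and Krt8 in library 1 but Krt8 and Krt7 in library 2. Krt19 had 1169 and 856 CPM, was found in 83 of 88 and 13 of 26 cells, and was higher than the mean of the 4 thymic epithelial classes by 4.80 ± 0.30 log2 (edgeR adjusted p = 9.97e-10). Krt18 had 268 and 212 CPM and fell by 2.61 ± 0.29 log2 (edgeR adjusted p = 1.41e-06). Krt8 had 194 and 403 CPM and fell by 2.29 ± 0.32 log2 (edgeR adjusted p = 2.49e-05). Both stayed far above the 12.4 to 30.2 CPM of fibroblast-like cells.

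Krt5 had 0 and 2 UMIs in mesothelium-like cells, and its pooled level was 1023-fold lower than in Ccl21a-high cells (95% counting interval 283 to 8451) and 48.5-fold lower than in Aire-expressing cells (13.4 to 401). Krt15 had no UMI, at least 15.2-fold below Ccl21a-high cells. Krt17 had 7.17 and 151 CPM, and fell by 6.42 log2 within library 1 and by 2.81 within library 2. The library 2 value rested on 15 UMIs, 7 of them in 1 cell. Krt14 had 31.1 and 0 CPM and fell by 3.21 ± 0.77 log2 (edgeR adjusted p = 0.00430). Krt80 was called higher on 7 UMIs in all, 5.17 CPM pooled, at the 5.50 and 6.49 CPM of fibroblast-like cells, and lost the call in the fit of these classes alone. All 4 basal keratins were called lower. In all 2 members were called higher and 6 lower, 8 of 31 (25.8%), beside 23.3% of all genes tested (14.5% higher and 8.78% lower). The median with bounds was -0.49 log2, against -0.11 for all genes. The 5 fibroblast markers summed to 13111 and 12781 CPM in mesothelium-like cells, and the erythroid markers to 4.78 and 1954 CPM. Their part in the keratin differences was not tested.

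Cells with 2 keratins at once were counted after thinning to 1000 UMIs. A UMI of both Krt5 and Krt8, the pair that has been used to mark cells between cortical and medullary types, was seen in 41.2% (95% exact binomial interval 35.4 to 47.1%) and 38.9% (30.9 to 47.4%) of Ccl21a-high cells. The share was 11.9% (5.30 to 22.2%) and 7.14% (2.92 to 14.2%) in cortical-like, 2.94% (1.19 to 5.97%) and 5.63% (2.46 to 10.8%) in Aire-expressing and 6.67% (1.85 to 16.2%) and 16.0% (4.54 to 36.1%) in Ackr4-positive cells. Without thinning, the shares were 95.5% and 86.1% in Ccl21a-high cells and 38.8% and 10.2% in cortical-like cells, whose median depths were 20857 and 2098 UMIs. In thymocyte-like cells, which should lack both, the thinned share was 0 of 82 and 0.656%, at median depths of 2420 and 2100 UMIs. Ccl21a-high cells had the highest share in both libraries, with intervals that overlapped those of secretory-like, Ackr4-positive, keratinocyte-like (23.7%, 15.7 to 33.4%) and tuft-like cells (21.1%, 12.3 to 32.4%) in library 2.

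A UMI of both Krt5 and Krt14 was seen in 50.5% and 41.0% of Ccl21a-high cells, but in 0.420% of Aire-expressing cells of library 1 and 0 of 142 of library 2, which allows up to 2.11% as 3 cells of 142 (2.56% by the exact interval). A UMI of both Krt8 and Krt18 was seen in 85.1% and 80.6% of cortical-like and in 78.3% and 74.6% of tuft-like cells, against 37.4% and 39.6% of Ccl21a-high cells. Their intervals did not overlap those of the Ccl21a-high cells.

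**Figure D5:**
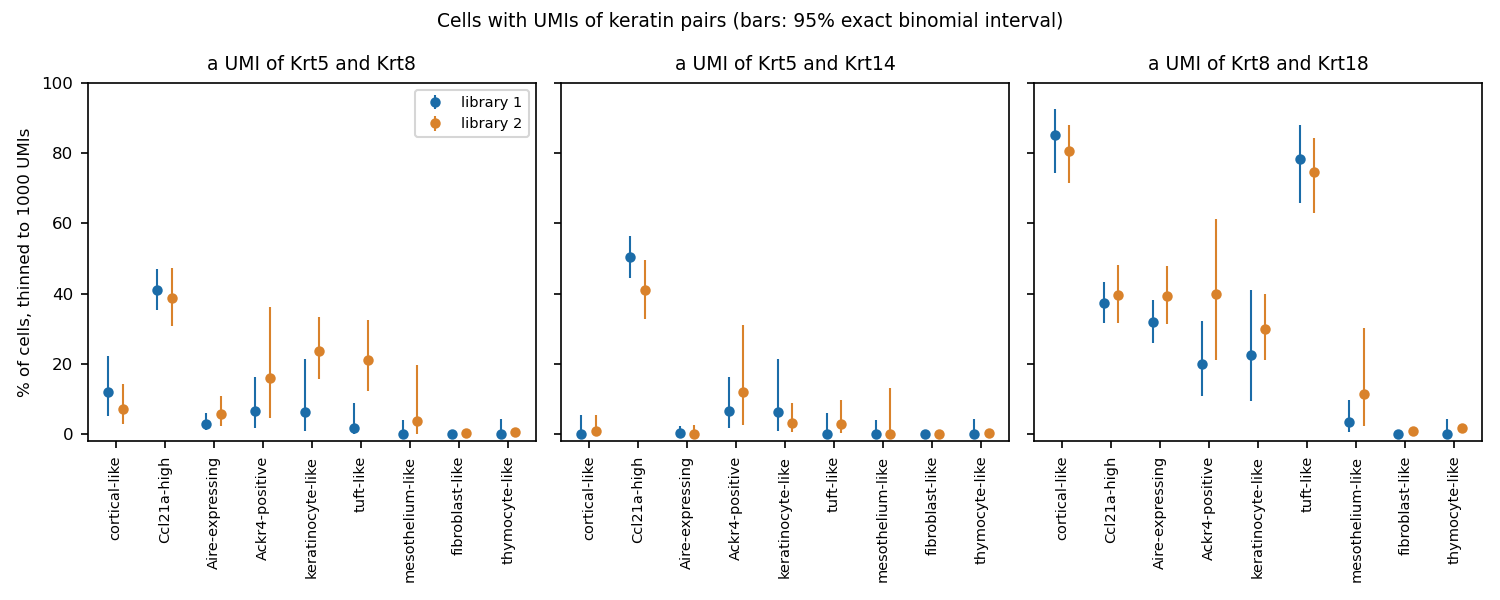
Percentage of cells with a UMI of both genes of a pair after thinning to 1000 UMIs, by class, for library 1 (blue) and library 2 (orange), with 95% exact binomial intervals. Krt5 with Krt8 and Krt5 with Krt14 are highest in Ccl21a-high cells, and Krt8 with Krt18 is highest in cortical-like and tuft-like cells.

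Genes whose products anchor or link keratin filaments were taken as a list of 22, all of which were tested: desmosomal cadherins and plaques, hemidesmosome parts, plakins and the other filament genes Vim and Lmna. Of the 22, 6 were higher and 4 lower in cortical-like than in medullary cells. Dst, a plakin that ties filaments to hemidesmosomes, was higher by 2.16 ± 0.20 log2 and Dsp, the desmosomal plakin that binds keratin, by 1.01 ± 0.21 log2 (edgeR adjusted p = 0.00195). Itga6, an integrin of hemidesmosomes, fell by 1.59 ± 0.27 log2 (edgeR adjusted p = 0.000448). The largest fitted differences were those of Pkp2 and Col17a1, both called lower. Pkp2 stood at -2.85 and -3.29 log2 within the 2 libraries and Col17a1 at -3.60 and -2.61 log2. Between the 2 medullary classes, 13 were higher and 2 lower in Ccl21a-high cells, among them the desmosomal cadherin Dsc3 by 2.96 ± 0.44 log2 and Eppk1, a keratin-binding plakin, by 2.93 ± 0.31 log2. Vim, of mesenchymal filaments, fell by 1.63 ± 0.41 log2 (edgeR adjusted p = 0.00420). Col17a1 was called lower too (edgeR adjusted p = 0.00660), at -2.04 log2 within library 1 and -5.21 log2 within library 2.

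In Ackr4-positive cells 2 of the 22 were higher and 2 lower: Dsc3 rose by 1.92 ± 0.33 log2 while Vim fell by 4.15 ± 0.55 log2. In keratinocyte-like cells 10 were higher and 2 lower, with Dsg3, the desmosomal cadherin of stratified epithelium, up by 5.51 ± 0.63 log2 and the cornified-envelope plakins Evpl and Ppl up by 4.28 ± 0.53 and 2.04 ± 0.38 log2. The hemidesmosome genes Dst and Itga6 fell there by 1.46 ± 0.25 and 1.29 ± 0.27 log2. In tuft-like cells 6 were higher and 4 lower, with Dsg3 up by 4.02 ± 0.68 log2, Eppk1 up by 3.25 ± 0.24 log2 and Vim down at -2.29 ± 0.42 log2. In mesothelium-like cells 4 were higher and 9 lower, with Vim up by 4.05 ± 0.30 log2 and Dsp down at -3.55 ± 0.30 log2. Evpl and Ppl were called higher there too, by 4.53 ± 0.55 and 3.05 ± 0.33 log2. Dsc3 was called lower, at -6.55 and -6.49 log2 within the 2 libraries, as was Dsc2, at -5.55 and -5.54 log2. The percentages of all genes called are those given above for each comparison, and each called partner had the same direction in both libraries.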

How the data were processed

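Single-cell RNA-seq with 10x Genomics 3′ chemistry measured UMIs per gene and cell in 2 libraries of thymic stroma of genotype E2F_M11. What the authors deposited are unnormalized counts of UMIs for each gene in each barcode, made with cellranger 6.0.0 per the file headers. Per the submitters' processing notes, Cell Ranger 7 and Seurat 4 were used with the build mm10. The 2 libraries had 5110 and 19163 barcodes and 41075328 and 42583831 UMIs. The cell filter asked for 500 genes, 1000 UMIs and no more than 10% mitochondrial UMIs. No doublet caller was run, and cells meeting several gates were left out.

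Cells were gated by summed marker UMIs per 10000 UMIs, without keratins. The members and lists were chosen with earlier results of these data known. Gate thresholds were set after marker distributions and in part keratin levels had been seen. The mesothelium gate was lowered to 2 markers to reach 20 cells in each library, and other mimetic limits were tried and not used. Dcn was left out of the fibroblast gate because it was high in other cells too.

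Counts were summed per library and class (20 sums of 10 classes) and tested with edgeR 4.0.16 in R 4.3.3 (quasi-likelihood test, TMM, filterByExpr, library as a block, Benjamini-Hochberg adjustment over 13058 genes). The block is used because each library holds every class. The 2 libraries are the replicates, so leaving 1 out gives a value with no test. The edgeR step was tested on simulated counts. Alternatives were DESeq2 1.42.0 (Wald test, and its size factors in edgeR), no low-count filter, no block, a stricter gate, a stricter cell filter and a fit of the compared classes alone. Each comparison names Krt5, Krt8, Krt14, Krt18 and up to 10 called members by size of fold. It also names up to 6 called partner genes, which are not always those with the largest fold. These partners, and other members named, were chosen after their values were seen. Where a class had 3 UMIs or fewer, a bound from 3 UMIs over both libraries or a pooled ratio with its exact counting interval replaces the fitted value. Intervals (95%, exact binomial or Poisson) cover counting error only.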

Additional observations from a re-analysis of the deposited data

Results flagged for a closer look

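Keratin was also present in the cells that met no gate and entered no comparison. These cells had 3460 keratin CPM in library 1 and 2166 CPM in library 2, above the 78.4 and 156 CPM of fibroblast-like cells, which serve as the background. They were 1048 and 5605 cells, with pan-epithelial markers summing to 1037 and 590 CPM, against 34.6 and 30.01 CPM in fibroblast-like cells. The part of epithelial cells too shallow for a gate and of free RNA in these values was not tested.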

How the results depend on the processing

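Of 518 values of named members under the alternatives, 476 kept direction and, where a test was run, side of the threshold. Another 22 lost the call, 7 gained one and 13 changed sign. Values without 1 library have no test and were judged by sign alone. Members called moved by over 1.5 times in these cases: 14 without the low-count filter and 11 in the fit of the compared classes alone for cortical-like cells (6 otherwise), 13 with the DESeq2 Wald test for Ccl21a-high against Aire-expressing cells (22), 3 without the replicate block and 8 in the fit of the classes alone for Ackr4-positive cells (5), and 9 with DESeq2 for keratinocyte-like cells (16). The block changed no other count of calls. Signs changed only among Krt5, Krt8, Krt14 and Krt18 values that were not called. Krt5 of Ackr4-positive cells, 0.0065 in the main fit, was -0.087 without the filter, -0.058 without the replicate block, -0.024 in the fit of the classes alone and -0.30 without library 1. It kept its sign without library 2, at 0.24. In keratinocyte-like cells the main values of Krt8, Krt14 and Krt18 were negative. Krt8 was 0.023 with DESeq2's size factors, 0.0037 with the stricter cell filter, 0.022 with DESeq2 and 0.18 without library 2. Krt14 was 0.073 in another alternative fit, 0.045 with DESeq2 and 0.25 without library 2, and Krt18 was 0.0026 without library 2. Without library 1 Krt8, Krt14 and Krt18 kept their sign, at -0.34, -0.34 and -0.53. Krt5 of tuft-like cells, -0.84 in the main fit, was 0.034 without library 1 and kept its sign without library 2, at -2.51. The cause was not tested. The mean keratin level was 8175 CPM with the stricter gate and 8076 CPM with the stricter cell filter in Ccl21a-high cells, 14982 and 13709 CPM in keratinocyte-like cells, and 1614 CPM with the stricter cell filter in mesothelium-like cells. Without thinning, the mean share of cells with Krt5 and Krt8 was 24.5% in cortical-like, 90.8% in Ccl21a-high, 23.2% in Aire-expressing and 51.5% in Ackr4-positive cells, so this share depends on depth. Without the low-count filter the median of all genes shifted to between -0.56 and -0.21 log2. Cells with no UMI of another lineage were too few to run. The stricter gate left too few Ackr4-positive and mesothelium-like cells to test, the stricter cell filter too few tuft-like and mesothelium-like cells, and microfold-like and secretory-like cells were not tested.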
